A study of Mus musculus with 8 samples.

Results

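The removal of the last gene copy of ERRα was examined in mouse hearts that already lacked cardiac ERRγ. The comparison set 2 αKOγKO libraries against 2 αHetγKO libraries, chosen by their labelled genotypes, which makes 4 of the 8 libraries of the study. Both genotypes carried the ERRγ knockout, and they differed in ERRα, which was homozygous knockout in αKOγKO and heterozygous in αHetγKO. Hearts came from littermate mice of the C57BL6/J background at postnatal day 16, and RNA was sequenced after the hearts of a group had been pooled. The study included both sexes, but the sex of the hearts in each pool is not given in the sources used here. The methods give 3 hearts for each pool and the design text allows as few as 2 mice. The other 4 libraries, 2 αKOγWT and 2 αHetγWT, repeat the same ERRα contrast with ERRγ present.

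Some limits come with these groups. ERRα was missing in every cell of the αKO mice, whereas ERRγ was deleted by a Cre recombinase under the Myh6 promoter, which is active in cardiomyocytes. The reference αHetγKO is heterozygous for ERRα and is no wild type. The paper reports lethal dilated cardiomyopathy and heart failure in αKOγKO mice, and normal cardiac function in mice lacking ERRα or cardiac ERRγ alone. The comparison thus sets failing hearts against hearts of normal function, and changes that come with heart failure cannot be told apart from the ERRα step itself. The paper gives αKOγKO mice a median life span shorter than the age sampled, so the hearts sequenced came from survivors that had outlived it. Whether the γWT hearts carried Cre is not given in the sources used here. The libraries are bulk tissue, in which fewer cells of a type and less RNA per cell cannot be told apart. Each genotype has 2 pools, so the p-values measure only the spread between pools.

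ERRα (Esrra) and ERRγ (Esrrg) are orphan nuclear receptors that bind closely related DNA elements and are active with the coactivators PGC-1α and PGC-1β. In heart muscle they are known for driving genes of oxidative phosphorylation, the TCA cycle and fatty acid oxidation, and genes of contraction and conduction. Because both receptors bind many of the same sites, losing either one can leave the other in place, and the present contrast is the one in which no intact receptor of the pair is left in cardiomyocytes.

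The 8 libraries held 28.2 M to 36.8 M uniquely assigned reads (M, 1000000) over 18656 genes, of which 15076 passed the filter on low counts. Levels are given as scaled RPKM, that is read counts divided by gene length and by library size, with the library sizes scaled by TMM, and differences as log2 fold change ± SE from edgeR's quasi-likelihood test with Benjamini-Hochberg adjusted p. As a check of the heart label, Myh6, the adult cardiac myosin heavy chain, was 7966 and 7574 in αHetγKO and 5717 and 6266 in αKOγKO. TMM factors were 1.053 and 1.077 in αKOγKO and 0.966 to 0.997 in the other 6 libraries. The αKOγKO pools were also the least alike, with a median absolute log2 difference between replicates of 0.194 against 0.107 to 0.14 in the other genotypes. Single pools stood apart in a pair of features. Xist, the RNA of the inactive X chromosome, had 7142 reads in αKOγKO replicate 1 and 6 to 14 in every other library, while 17 Y-linked protein-coding genes summed to 5711 to 8809 reads across all 8. Xist reads thus marked female hearts in αKOγKO replicate 1 alone, so the compared pools differed in sex make-up. The part of sex in the results was not tested beyond a fit without X and Y chromosome genes, given further on. Immediate-early genes were highest in αKOγKO replicate 2, as described further on.

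Esrra (chr19:6910977-6922048, mm10) checked the labels. Its level was 47.8 and 45.9 in αHetγKO and 1.35 and 1.52 in αKOγKO, so both αKOγKO pools lay far below both αHetγKO pools. The difference was -5.03 ± 0.13 (adjusted p = 6.27e-07). With ERRγ present the same step gave -4.97 ± 0.14, and the 2 steps differed by -0.06 ± 0.18 (adjusted p = 0.864). Esrrg transcripts do not check the ERRγ label, because the counts cover the whole gene and not only its deleted part. Esrrg was 7.94 and 8.26 in αHetγKO and 14.5 and 16.3 in αKOγKO, the αKOγKO pools being the higher, with a difference of 0.93 ± 0.09 (adjusted p = 0.000102). Esrrb, the third family member, was low throughout at 3.86 and 4.80 in αHetγKO and 4.55 and 2.68 in αKOγKO, and its difference of -0.26 ± 0.24 did not pass the test (adjusted p = 0.424) and became 0.06 without αKOγKO replicate 2.

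The PGC-1 coactivators of the ERRs rose, while the nuclear receptor genes Ppara and Nr0b2 fell. Ppargc1a, which encodes PGC-1α, was 42.1 and 44.1 in αHetγKO and 98.1 and 89.3 in αKOγKO. Both αKOγKO values exceeded both αHetγKO values, a difference of 1.12 ± 0.12 (adjusted p = 0.000144). Ppargc1b, encoding PGC-1β, rose by 0.70 ± 0.12 (adjusted p = 0.00179). Ppara, the fatty acid-sensing receptor PPARα, was 11.7 and 12.1 in αHetγKO and 3.83 and 4.04 in αKOγKO, without overlap, and changed by -1.60 ± 0.09 (adjusted p = 5.34e-06). Nr0b2, the atypical receptor SHP that represses other nuclear receptors, was 10.4 and 9.54 in αHetγKO and 0.547 and 0.648 in αKOγKO. That is one of the steepest falls of the comparison, -4.05 ± 0.16 (adjusted p = 2.06e-06). Perm1, a muscle regulator that acts with PGC-1α, fell by 0.60 and Tfam, the mitochondrial transcription factor A, fell by 0.61. In the list of 17 measured partners and upstream regulators, 2 were higher and 8 lower, against 18.7% and 19.6% of all tested genes. The other 7 did not pass.

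A large part of the heart transcriptome differed between αKOγKO and αHetγKO. Of 15076 genes tested, 2814 were higher and 2956 lower in αKOγKO at an adjusted p below 0.05, which is 38.3% together, and 7165 had an unadjusted p below 0.05. The median size of the change was 0.61 among the higher genes and 0.692 among the lower, and the median over all genes was 0.004. More than 2-fold changes counted 764 higher and 893 lower genes, more than 4-fold changes 205 and 153, and more than 8-fold changes 82 and 47. The counts fell to 1460 higher and 1901 lower without αHetγKO replicate 1, and to 1679 and 2036 without αHetγKO replicate 2. With limma on log2(RPKM + 1) the split was 3818 higher and 2228 lower, so that 63.1% of calls were higher instead of 48.8%. In the main fit the pools of the compared genotypes overlapped for 2 of the 2814 higher genes and 0 of the 2956 lower genes. A lack of overlap, where given for a called gene, therefore comes with the call and adds no support to it.

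The genes with the largest rises came from several families. Nmrk2, a muscle kinase that makes nicotinamide mononucleotide from nicotinamide riboside, was 3.10 and 4.67 in αHetγKO and 219 and 111 in αKOγKO. Each αKOγKO pool was far above each αHetγKO pool (5.39 ± 0.43, adjusted p = 2.87e-05). Slc16a3, the lactate exporter MCT4, was 1.69 and 1.71 in αHetγKO and 51.3 and 33.3 in αKOγKO, again without overlap (4.63 ± 0.23, adjusted p = 2.82e-06). Gdf15, a secreted member of the TGF-β superfamily, was 1.34 and 0.909 in αHetγKO and 50.1 and 18.3 in αKOγKO. Replicate 1 was the higher of the αKOγKO pools and both lay above αHetγKO (4.94 ± 0.52, adjusted p = 0.000149). Aqp8, a water channel, was 0.0489 and 0.301 in αHetγKO and 15.4 and 9.36 in αKOγKO. It rose by 6.04 ± 0.50 (adjusted p = 4.04e-05), or by 3.56 on the log2(RPKM + 1) scale, which shrinks genes with low values. The long noncoding RNA 4833412C05Rik rose by 6.00 ± 0.36 (adjusted p = 5.65e-06) and Grin2c, a subunit of the NMDA glutamate receptor, by 4.53 ± 0.19 (adjusted p = 2.06e-06). Mgarp, a mitochondrial protein rich in glutamic acid, was 0.0503 and 0.124 in αHetγKO and 2.48 and 2.37 in αKOγKO, and its change of 4.71 ± 0.46 was 1.72 on the log2(RPKM + 1) scale.

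The largest falls included genes that became nearly undetectable. Lrat, the enzyme that esterifies retinol for storage, was 5.89 and 4.87 in αHetγKO and 0.145 and 0.0662 in αKOγKO. Both αKOγKO pools were at trace levels (-5.66 ± 0.46, adjusted p = 3.21e-05), which is -2.50 on the log2(RPKM + 1) scale. Wdr72, a WD-repeat protein, was 1.85 and 2.38 in αHetγKO and 0.0641 and 0.0580 in αKOγKO (-5.10 ± 0.21, adjusted p = 2.06e-06) and its change on that scale was -1.53. The leucine-rich repeat genes Lrtm1 and Lrrc15 fell side by side. Lrtm1 was 19.0 and 14.5 in αHetγKO and 0.786 and 0.449 in αKOγKO (-4.76 ± 0.26, adjusted p = 3.91e-06). Lrrc15 was 9.20 and 7.10 in αHetγKO and 0.339 and 0.471 in αKOγKO (-4.33 ± 0.19, adjusted p = 2.06e-06), or -2.65 on the log2(RPKM + 1) scale. Sstr3, a somatostatin receptor, was 4.86 and 3.97 in αHetγKO and 0.335 and 0.348 in αKOγKO (-3.69 ± 0.20, adjusted p = 3.91e-06) and -1.97 on that scale. Tmem35a fell by 3.15 (SE 0.15) from 15.7 and 17.2 to 2.11 and 1.60, without overlap.

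**Figure D1:**
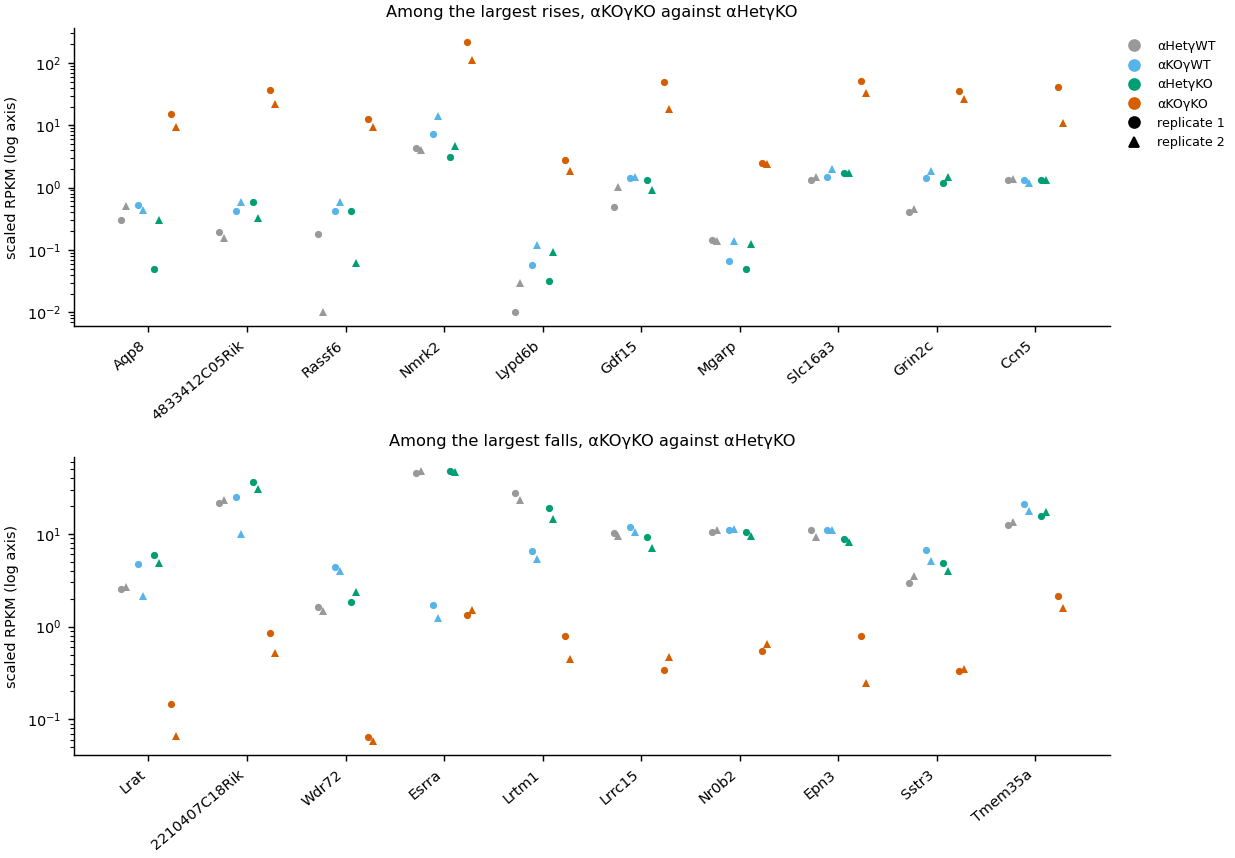
Scaled RPKM on a log axis, in each of the 8 libraries, for the genes with the largest rises and falls between αHetγKO and αKOγKO; each point is 1 library and values of 0 are drawn at 0.01. The αKOγKO points lie apart from the 6 others for genes such as Slc16a3 (51.3 and 33.3) and Lrrc15 (0.339 and 0.471).

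Genes of the respiratory chain fell as a block. The counts here and in the mitochondrial lists that follow stand beside 18.7% higher and 19.6% lower among all tested genes. All 37 measured Complex I subunits were lower and none was higher, with a median log2 fold change of -1.41. Ndufa5, an accessory subunit, was 632 and 614 in αHetγKO and 169 and 156 in αKOγKO, and the pools of the 2 genotypes were widely separated (-1.94 ± 0.07, adjusted p = 1.99e-06). Summed over the list, Complex I transcripts were 19373 and 18258 scaled RPKM in αHetγKO and 6954 and 6811 in αKOγKO. Among 42 genes of Complexes II to V, 41 were lower and none higher, with a median of -1.45. Uqcr11, of Complex III, was 1401 and 1317 in αHetγKO and 341 and 311 in αKOγKO (-2.06 ± 0.08, adjusted p = 1.99e-06). Sdha, the catalytic subunit of succinate dehydrogenase, fell by 1.75 (SE 0.07). Only genes of the nucleus were measured, since the tables list no gene of the mitochondrial chromosome.

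Among the paired Complex IV genes given here, the heart and muscle forms had larger falls than the ubiquitous forms. This pattern, and that of the ATP synthase genes below, was noticed after the values were seen. No gene was tested against its counterpart. Cox7a1, the muscle form, was 1783 and 1495 in αHetγKO and 240.0 and 151 in αKOγKO (-3.07 ± 0.20), while Cox7a2 changed by -1.22 ± 0.09. Cox6a2, the muscle form, changed by -1.98 ± 0.12 (adjusted p = 6.82e-06). Its ubiquitous counterpart Cox6a1 was 364 and 334 in αHetγKO and 316 and 263 in αKOγKO, a difference of -0.27 ± 0.10 that did not pass (adjusted p = 0.0735). Cox8b changed by -1.35 ± 0.08 and Cox8a by -0.51 ± 0.09. Of the 3 genes that encode the same c subunit of the ATP synthase, Atp5g1 changed by -1.70 ± 0.10 and Atp5g3 by -1.60 ± 0.08, whereas Atp5g2 was 506 and 479 in αHetγKO and 398 and 423 in αKOγKO (-0.26 ± 0.07, adjusted p = 0.0159), a call lost without αHetγKO replicate 1 (adjusted p = 0.135), αHetγKO replicate 2 (0.0541) or αKOγKO replicate 1 (0.0501).

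Fuel entry and oxidation followed the respiratory chain. In the list of TCA cycle and pyruvate entry genes 24 of 26 were lower and 1 higher, with a median of -1.50. Idh3b, a subunit of the NAD-dependent isocitrate dehydrogenase, was 597 and 542 in αHetγKO and 136 and 118 in αKOγKO (-2.16 ± 0.09, adjusted p = 2.06e-06). Mdh2, the mitochondrial malate dehydrogenase, fell by 1.95 and Mpc2, a subunit of the mitochondrial pyruvate carrier, by 1.92. Pdk1, a kinase that inhibits pyruvate dehydrogenase, was the gene that rose, at 23.3 and 22.9 in αHetγKO and 36.6 and 35.0 in αKOγKO (0.63 ± 0.06, adjusted p = 0.000116). For fatty acid uptake and β-oxidation 29 of 30 genes were lower, with a median of -1.07. Hadhb, the β subunit of the trifunctional protein, was 947 and 881 in αHetγKO and 259 and 242 in αKOγKO (-1.87 ± 0.08, adjusted p = 2.11e-06). Cd36, the fatty acid transporter, fell by 0.68 and Cpt1b, the muscle carnitine palmitoyltransferase, by 0.74. Cpt1a, the liver form, was 22.6 and 21.6 in αHetγKO and 26.0 and 27.1 in αKOγKO (0.26 ± 0.07, adjusted p = 0.0184), and this call was lost without αHetγKO replicate 1 (adjusted p = 0.0721) or replicate 2 (adjusted p = 0.126). In the list of ketone and branched-chain amino acid oxidation 16 of 17 genes were lower, with a median of -1.41.

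Lists of energy transfer and mitochondrial upkeep had mostly lower genes too. Ckmt2, the mitochondrial creatine kinase of muscle, was 1435 and 1329 in αHetγKO and 205 and 133 in αKOγKO, so that the αKOγKO pools kept a small part of the αHetγKO level (-3.03 ± 0.19, adjusted p = 6.80e-06). Among 16 carriers and energy transfer genes 14 were lower and 1 higher, with a median of -0.84. For coenzyme Q synthesis 11 of 13 were lower and 1 higher. Mitochondrial ribosomal proteins were lower for 38 of 47 genes and higher for 2, with a median of -0.69. Mrps35 stood out at 82.2 and 81.1 in αHetγKO and 21.9 and 22.0 in αKOγKO (-1.89 ± 0.07, adjusted p = 1.99e-06). In the list of mitochondrial dynamics, genome and import 16 of 22 were lower, with a median of -0.47. Of the mitofusins, fusion proteins of the outer membrane, Mfn1 had the larger change. Mfn1 was 82.2 and 79.8 in αHetγKO and 19.7 and 20.4 in αKOγKO (-2.01 ± 0.07, adjusted p = 1.99e-06), and Mfn2 was 256 and 243 in αHetγKO and 211 and 221 in αKOγKO (-0.21 ± 0.07, adjusted p = 0.0368), a call lost whenever a library other than αKOγKO replicate 2 was left out. Sod2, the manganese superoxide dismutase of the matrix, was 141 and 135 in αHetγKO and 35.1 and 34.4 in αKOγKO (-1.99 ± 0.07, adjusted p = 1.99e-06).

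**Figure D2:**
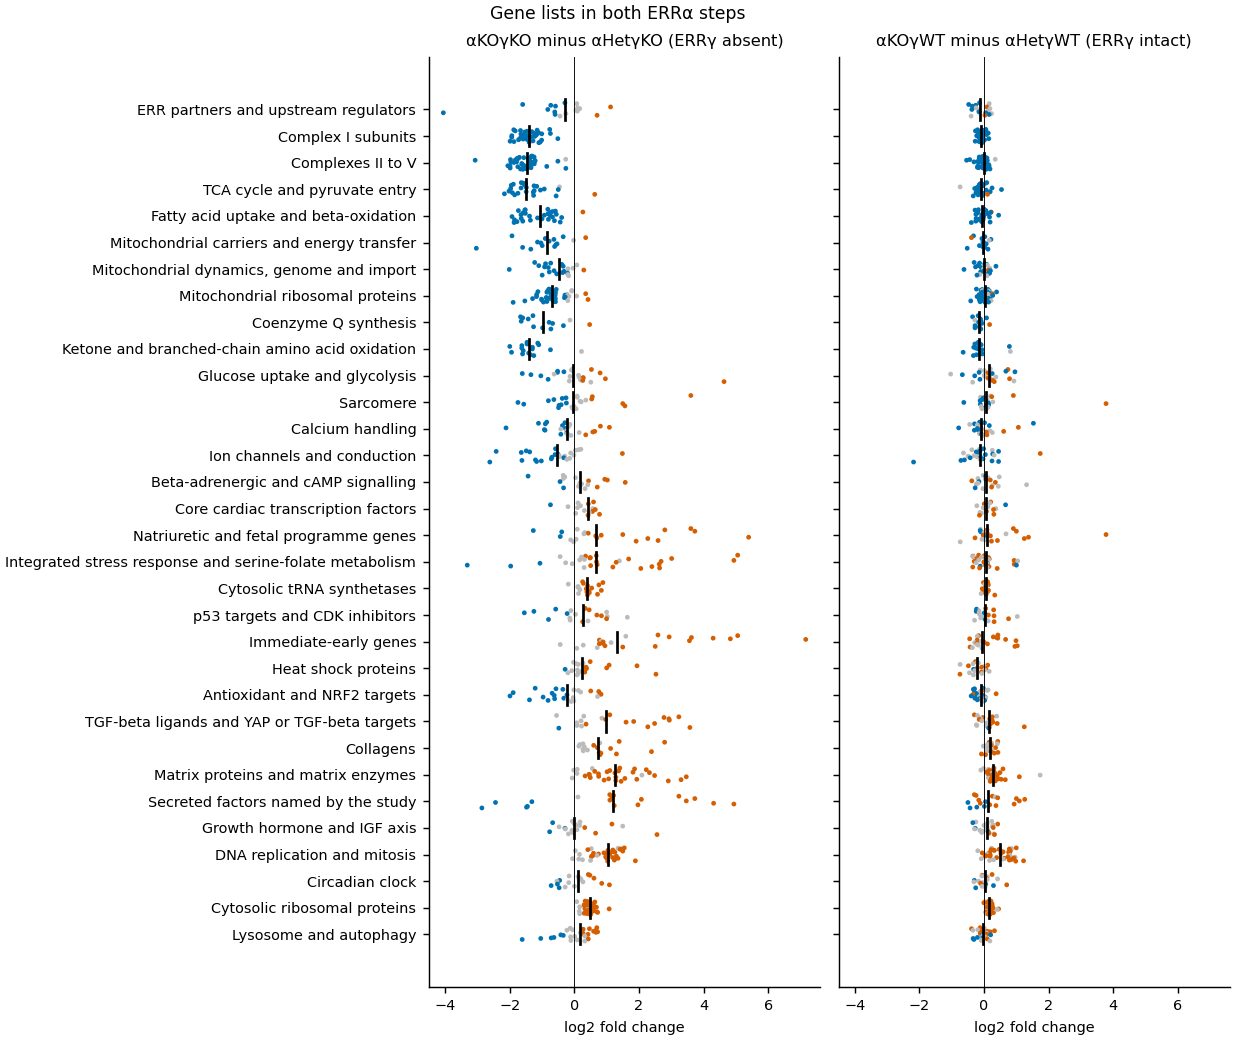
Log2 fold change (horizontal axis) for the members of each gene list, cell type markers left out. The left panel shows αKOγKO against αHetγKO and the right panel αKOγWT against αHetγWT. Each point is 1 gene, coloured in both panels by its call in αKOγKO against αHetγKO. In the left panel the lists of mitochondrial energy metabolism lie left of 0, with medians of -1.41 for Complex I and -1.45 for Complexes II to V. The matrix list there lies right of 0 with a median of 1.256.

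Glycolysis did not move in 1 direction. Of 24 measured genes of glucose uptake and glycolysis 7 were higher and 7 lower, against 18.7% and 19.6% of all tested genes, with a median of -0.05. The higher count was smaller without αHetγKO replicate 2. The lactate dehydrogenase subunits moved in opposite directions. Ldhb, the heart subunit, was 1469 and 1375 in αHetγKO and 451 and 479.7 in αKOγKO (-1.61 ± 0.08, adjusted p = 2.79e-06). Ldha, the muscle subunit, was 489 and 462 in αHetγKO and 854 and 799 in αKOγKO (0.80 ± 0.07, adjusted p = 6.15e-05), with no overlap for either gene. Slc2a4, the insulin-responsive glucose transporter GLUT4, fell by 0.81 and Slc2a1, the transporter GLUT1, rose by 0.96 (SE 0.17). Pfkm, the muscle phosphofructokinase, fell by 1.04.

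Sarcomere genes moved in both directions. Of 24 measured, 5 were higher and 10 lower, against 18.7% and 19.6% of all tested genes, with a median of -0.03. The share of higher genes was thus near that of all tested genes. Acta1, the skeletal α-actin that the fetal heart also makes, was 170.2 and 126 in αHetγKO and 2478 and 1123 in αKOγKO. The αKOγKO pools lay above both others, replicate 1 highest (3.60 ± 0.36, adjusted p = 0.00011). Tnni3, the adult cardiac troponin I, was 5578 and 5134 in αHetγKO and 1732 and 1887 in αKOγKO (-1.57 ± 0.08, adjusted p = 3.85e-06). Tpm2, a tropomyosin of slow muscle, rose by 1.57 and Actn2, the Z-disc α-actinin, by 0.56. The counts were 3 higher and 6 lower without either αHetγKO pool, and 3 higher without either αHetγWT pool.

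Calcium handling and excitation genes had more lower than higher calls. In the calcium list 11 of 24 were lower and 5 higher, against 19.6% and 18.7% of all tested genes, with a median of -0.24. Its share of higher genes was thus near that of all tested genes. Hrc, the histidine-rich calcium-binding protein of the sarcoplasmic reticulum, was 353 and 321 in αHetγKO and 78.7 and 76.8 in αKOγKO (-2.11 ± 0.10, adjusted p = 2.55e-06). Ryr2, the calcium release channel, was 103 and 97.5 in αHetγKO and 53.4 and 53.4 in αKOγKO (-0.91 ± 0.08, adjusted p = 5.24e-05), and Atp2a2, the calcium pump SERCA2, fell by 0.85. Slc8a1, the sodium-calcium exchanger, rose by 0.63 and Jph1, a junctophilin, by 0.57. The calcium counts became 3 higher and 6 lower without αHetγKO replicate 1, 3 and 7 without replicate 2, and 3 higher without αKOγKO replicate 1. Among ion channels and conduction genes 15 of 26 were lower and 1 higher, with a median of -0.55. Hcn2, a pacemaker channel, was 32.0 and 28.3 in αHetγKO and 5.48 and 5.79 in αKOγKO (-2.42 ± 0.09, adjusted p = 1.99e-06). The gene that rose was Kcne1, an accessory potassium channel subunit, at 14.4 and 16.8 in αHetγKO and 44.2 and 43.2 in αKOγKO (1.49 ± 0.14, adjusted p = 6.69e-05).

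Of 18 adrenergic and cAMP genes 5 were higher and 3 lower, close to the shares of all tested genes (18.7% and 19.6%). Prkar1a, a regulatory subunit of protein kinase A, was 166 and 176 in αHetγKO and 538 and 482 in αKOγKO (1.57 ± 0.09, adjusted p = 4.92e-06). Adra1b, an α1-adrenergic receptor, fell by 1.43. The lower count was 5 without αKOγKO replicate 2. Of 15 core cardiac transcription factors 6 were higher and 1 lower, with 3 higher without αHetγKO replicate 1 and 10 higher without αKOγKO replicate 1. Tbx20 was 26.9 and 29.0 in αHetγKO and 46.8 and 49.3 in αKOγKO (0.78 ± 0.10, adjusted p = 0.000562), and Tead1, a partner of YAP, rose by 0.56 ± 0.07 (adjusted p = 0.000416).

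Genes of the natriuretic and fetal programme rose for 12 of 21 members and fell for 3, with a median of 0.66. Of all tested genes 18.7% were higher and 19.6% lower, so the share of lower members was near that of all genes. Nppa, the atrial natriuretic peptide, was 3449 and 3187 in αHetγKO and 21070 and 18911 in αKOγKO (2.59 ± 0.25, adjusted p = 9.52e-05). Nppb, the B-type peptide, was 115 and 122 in αHetγKO and 1854 and 1294 in αKOγKO (3.73 ± 0.33, adjusted p = 5.29e-05). For both peptides the αKOγKO pools lay above all 6 other libraries. Ankrd1, a stress-responsive ankyrin repeat protein, was 649 and 596 in αHetγKO and 2917 and 3104 in αKOγKO (2.27 ± 0.16, adjusted p = 1.57e-05). The LIM-domain genes diverged, Fhl1 being 52.5 and 58.0 in αHetγKO and 516 and 253 in αKOγKO (2.80 ± 0.28) and Fhl2 1271 and 1234 in αHetγKO and 524 and 516 in αKOγKO (-1.27 ± 0.07).

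Genes of the integrated stress response and of serine and folate metabolism were higher for 18 of 29 and lower for 3, with a median of 0.68. All counts of this paragraph stand beside 18.7% higher and 19.6% lower among all tested genes. Atf4, the central transcription factor of this response, was 65.4 and 65.3 in αHetγKO and 105 and 104 in αKOγKO (0.68 ± 0.08, adjusted p = 0.000272). Psat1, an enzyme of serine synthesis, was 3.50 and 3.37 in αHetγKO and 22.9 and 19.5 in αKOγKO (2.63 ± 0.16, adjusted p = 6.10e-06). Mthfd2, of the mitochondrial folate pathway, was 2.55 and 2.35 in αHetγKO and 31.6 and 7.92 in αKOγKO, so that replicate 1 was well above replicate 2 (3.01 ± 0.54, adjusted p = 0.00262, or 1.70 without αKOγKO replicate 1). Gpt2, a mitochondrial alanine transaminase, fell by 1.97, and Ddit4, an inhibitor of mTORC1 signalling, by 1.06. The count of higher genes was 11 and 10 without αHetγKO replicates 1 and 2. Cytosolic tRNA synthetases were higher for 13 of 18 and lower for none, with Yars rising by 0.84 and Sars by 0.88, and the count was 6 and 7 without αHetγKO replicates 1 and 2. Heat shock proteins were higher for 8 of 20 and lower for 1. Hspa1a, an inducible HSP70, was 1.33 and 0.854 in αHetγKO and 6.16 and 6.32 in αKOγKO (2.53 ± 0.25, adjusted p = 0.000109), a value made uncertain by its near-identical neighbour Hspa1b. Of 25 antioxidant genes 13 were lower and 4 higher, against 19.6% and 18.7% of all tested genes. Gsta4, a glutathione transferase that removes lipid aldehydes, fell by 1.89, and Nqo1, a quinone reductase, rose by 0.83. For p53 targets and CDK inhibitors 6 of 19 were higher and 5 lower, against 18.7% and 19.6% of all tested genes.

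The size of the rise of immediate-early genes rested largely on 1 pool. Of 22 genes 15 were higher and none lower, against 18.7% and 19.6% of all tested genes, with a median of 1.32. Fos was 1.81 and 4.92 in αHetγKO and 5.93 and 188 in αKOγKO (4.83 ± 1.28, adjusted p = 0.0169), so only αKOγKO replicate 2 was far from the rest. Without that pool the Fos value was 0.79 and did not pass (adjusted p = 0.158), nor did it pass without αHetγKO replicate 1 (adjusted p = 0.125) or 2 (0.072). Fosb was 0.231 and 0.363 in αHetγKO and 0.785 and 85.9 in αKOγKO, and its value of 7.16 became 1.37 without αKOγKO replicate 2 and lost its call without αHetγKO replicate 1 (adjusted p = 0.102) or 2 (0.0906). Atf3, a stress-induced member of the same leucine zipper family, was 1.98 and 2.22 in αHetγKO and 9.69 and 130.3 in αKOγKO, both αKOγKO pools lying above αHetγKO. Its value of 5.06 became 2.19 without αKOγKO replicate 2, and the call was lost without αHetγKO replicate 1 (adjusted p = 0.0645) or 2 (adjusted p = 0.0589). The count of higher genes in the list was 5 and 3 without αHetγKO replicates 1 and 2, and 9 without αKOγKO replicate 2.

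Extracellular matrix and growth factor genes rose widely, beside 18.7% higher and 19.6% lower among all tested genes. Of 33 matrix proteins and matrix enzymes 27 were higher and none lower, with a median of 1.26. Thbs4, a thrombospondin of the matrix, was 6.23 and 6.69 in αHetγKO and 76.6 and 66.3 in αKOγKO (3.46 ± 0.18, adjusted p = 3.56e-06). Cilp, a cartilage matrix protein, was 4.00 and 4.98 in αHetγKO and 45.8 and 21.7 in αKOγKO (2.91 ± 0.31, adjusted p = 0.000165), with replicate 1 the higher. Collagens were higher for 10 of 18 and lower for none. Col1a1, of fibrillar type I collagen, was 153 and 181 in αHetγKO and 332 and 236 in αKOγKO (0.77 ± 0.16, adjusted p = 0.00574), its call lost without αHetγKO replicate 1 (adjusted p = 0.0595) and its value 0.51 without αKOγKO replicate 1. Without αHetγKO replicate 1 the counts were 16 for the matrix list and 2 for collagens, collagens numbered 6 without αHetγKO replicate 2, and they numbered 17 without αKOγKO replicate 2. Of 21 TGF-β ligands and genes driven by YAP or TGF-β 12 were higher and 1 lower. Ccn2, a matricellular growth factor, was 63.2 and 76.6 in αHetγKO and 712 and 604 in αKOγKO (3.23 ± 0.17, adjusted p = 3.84e-06). Tgfb2, a TGF-β ligand, was 3.09 and 3.97 in αHetγKO and 16.4 and 8.89 in αKOγKO (1.84 ± 0.27, adjusted p = 0.000936), with no overlap for either gene.

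Secreted factors that the study itself named were higher for 12 of 18 and lower for 5. The study took its candidates from this heart RNA-Seq and from a plasma protein screen of αHetγWT and αKOγKO mice. Their count is thus no independent evidence of direction. Fndc5, the precursor of irisin, was 106 and 95.5 in αHetγKO and 16.3 and 11.4 in αKOγKO (-2.86 ± 0.16, adjusted p = 4.00e-06). Vegfb, an endothelial growth factor, was 138 and 135 in αHetγKO and 52.5 and 57.3 in αKOγKO (-1.31 ± 0.07, adjusted p = 4.93e-06), and the serum glycoprotein Vtn fell by 2.44. Gpc3 was the member that did not pass, at 0.11, and its sign turned without αHetγKO replicate 1 (-0.06) or αKOγKO replicate 1 (-0.02). In the growth hormone and IGF axis 4 of 20 genes were higher and 3 lower, near the 18.7% and 19.6% of all tested genes, the lower count being 5 without αKOγKO replicate 2. Igf1r, the IGF-1 receptor, was 5.08 and 5.17 in αHetγKO and 11.3 and 11.7 in αKOγKO (1.16 ± 0.07, adjusted p = 4.88e-06). Ghr, the growth hormone receptor, was 37.2 and 37.4 in αHetγKO and 22.5 and 24.3 in αKOγKO (-0.67 ± 0.07, adjusted p = 0.000114).

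Cell cycle and ribosome genes were higher. In the list of DNA replication and mitosis 28 of 38 were higher and none lower, with a median of 1.04, and the count was 8 without αHetγKO replicate 1 and 17 without αKOγKO replicate 1. Ccnd2, cyclin D2, was 24.7 and 25.1 in αHetγKO and 62.7 and 50.9 in αKOγKO (1.19 ± 0.10, adjusted p = 4.54e-05). Mcm3, a subunit of the replicative helicase, was 3.93 and 3.48 in αHetγKO and 9.17 and 6.81 in αKOγKO (1.11 ± 0.15, adjusted p = 0.000616). Several mitosis genes of the list rose mainly in αKOγKO replicate 1, with αKOγKO replicate 2 near αHetγKO replicate 2. The list summed to 148 and 167 scaled RPKM in αHetγKO and to 326 and 237 in αKOγKO. Cytosolic ribosomal proteins were higher for 42 of 47 genes and lower for none, but by a small median of 0.48. Rpl3 was 288 and 299 in αHetγKO and 632 and 607 in αKOγKO (1.08 ± 0.08, adjusted p = 2.16e-05). These genes have many processed copies in the genome, so that their uniquely assigned reads are uncertain. For the circadian clock 5 of 19 were higher and 4 lower, near the 18.7% and 19.6% of all tested genes, the higher count being 3 without any 1 of the αHetγWT or αHetγKO pools. For lysosome and autophagy 11 of 27 were higher and 6 lower, the lower share being near the 19.6% of all tested genes. The higher count was smaller without either αHetγKO pool. Pink1, a kinase of mitochondrial quality control, was 231 and 211 in αHetγKO and 59.5 and 84.8 in αKOγKO (-1.61 ± 0.15, adjusted p = 6.47e-05).

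Beside these groups, markers of several non-muscle cell types differed, and their part in the gene group changes was not tested. The marker counts stand beside 18.7% higher and 19.6% lower among all tested genes. Some markers are also members of the groups above, such as Col1a1 (fibroblast) and Nppa (atrial). The activated fibroblast and matrix lists have the same highest value, 3.465. Marker counts thus partly repeat the group counts. Endothelial markers were lower for 12 of 16 and higher for 1, and their summed level was 2899 and 2815 scaled RPKM in αHetγKO and 1983 and 1802 in αKOγKO. Aqp1, an endothelial water channel, was 195 and 173 in αHetγKO and 65.6 and 66.1 in αKOγKO (-1.48 ± 0.10, adjusted p = 9.39e-06), and the endothelial cadherin Cdh5 and the VEGF receptor Kdr fell by 0.72 and 0.68. Activated fibroblast markers were higher for 8 of 10 and lower for 1, with summed levels of 1274 and 1127 in αHetγKO and 3152 and 2209 in αKOγKO. The general fibroblast list had 5 of 13 higher and 1 lower, its higher count being 2 without αHetγKO replicate 1 and 9 without αKOγKO replicate 2. Tcf21, a fibroblast transcription factor, was 16.1 and 15.4 in αHetγKO and 39.5 and 30.9 in αKOγKO (1.17 ± 0.13, adjusted p = 0.000213). Atrial cardiomyocyte markers were higher for 6 of 13 and lower for 1, and ventricular markers were lower for 4 of 8. Smooth muscle and pericyte markers had 4 of 12 higher and 4 lower, and 7 lower without αKOγKO replicate 1. Macrophage markers had 1 of 15 higher, but 5 lower without αKOγKO replicate 1 and 7 higher without αKOγKO replicate 2. No lymphocyte, red blood cell or adipocyte marker passed, and of epicardial, Schwann or neuronal and skeletal muscle markers 1, 2 and 1 were higher and 0, 1 and 1 lower. Of the markers matched to a gene none was at 0 in all 4 γKO libraries, while Trbc1 (lymphocytes), Hbb-bt (red blood cells), Myh4 and Myod1 (skeletal muscle) were matched to none and were not analysed here.

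The αKOγKO pools differed from each other in some groups and little in others. Among the genes called higher, 133 differed more than 2-fold between the pools, 107 of them higher in replicate 1 and 26 in replicate 2, against 27 such genes among those called lower. The median difference of replicate 1 from replicate 2, on the log2 scale, was 0.715 for the matrix list, 0.832 for activated fibroblast markers and 0.751 for macrophage markers. It was -1.575 for immediate-early genes and 0.009 over all genes. Other lists that rose also leaned to replicate 1, with 0.636 for collagens and 0.437 for the integrated stress response list. It was 0.426 for DNA replication and mitosis and 0.271 for cytosolic tRNA synthetases. Smaller values were 0.012 for cytosolic ribosomal proteins, 0.079 for TGF-β and YAP genes and 0.121 for the natriuretic and fetal programme. Serpina3n, an acute-phase protease inhibitor, was 2.25 and 2.39 in αHetγKO and 18.2 and 4.14 in αKOγKO, and its value of 2.27 became 0.84 without αKOγKO replicate 1, and its call was lost without that pool (adjusted p = 0.0711) or without αHetγKO replicate 1 (0.105) or 2 (0.0923). Summed Complex I transcripts, by comparison, were 6954 and 6811 scaled RPKM in the same pools. Without Xist and the other genes of the X and Y chromosomes the counts were 2714 higher and 2851 lower.

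**Figure D3:**
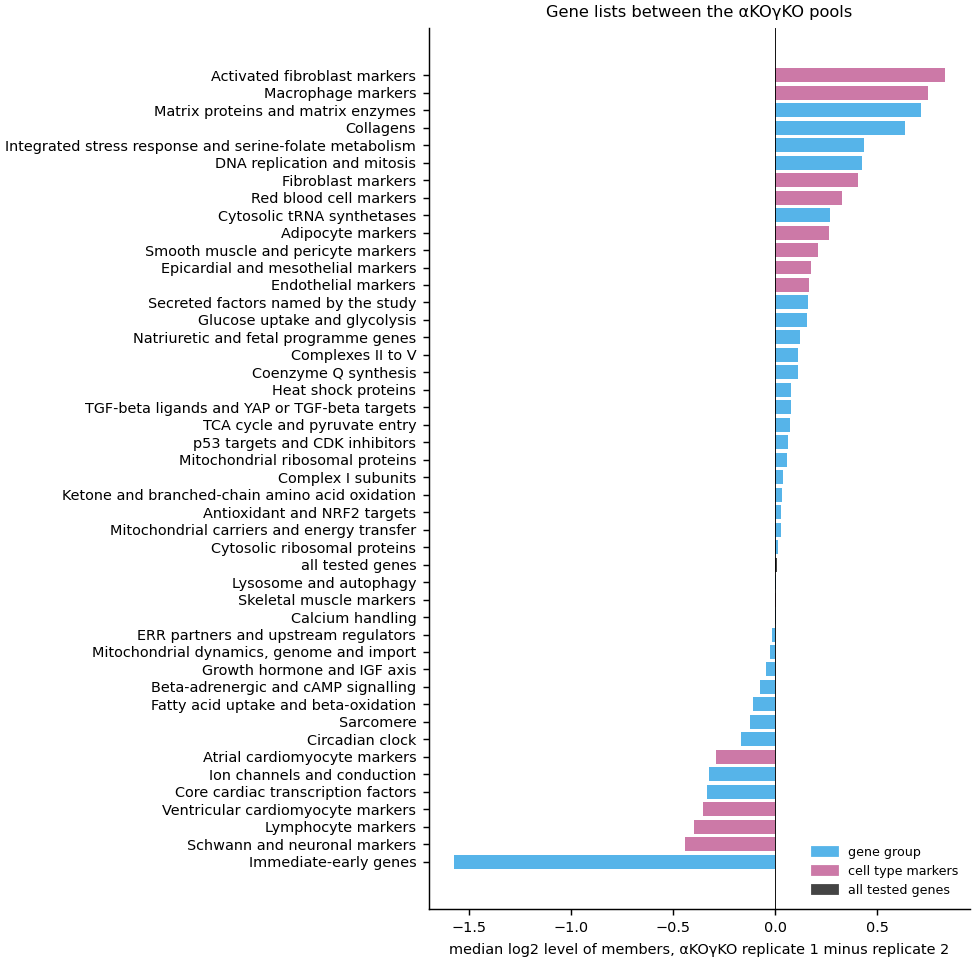
Median log2 difference of αKOγKO replicate 1 from αKOγKO replicate 2 over the members of each gene list. Each bar is 1 list, and a further bar gives all tested genes. The bar of immediate-early genes lies left of 0 (median -1.575) and that of matrix genes right of 0 (median 0.715).

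With ERRγ present the ERRα step was small. Between αKOγWT and αHetγWT 112 genes were higher (0.743% of 15076) and 74 lower (0.491%), or 1.23% in all, although Esrra fell to the same extent. The difference between the 2 steps passed the test for 2640 genes (17.5%), being higher without ERRγ for 1020 (6.77%) and lower for 1620 (10.7%). With limma on log2(RPKM + 1) these were 1644 and 1227, so that 57.3% instead of 38.6% were higher. The 2 steps use separate controls, αHetγKO and αHetγWT. Their tests share an estimate of spread from all 8 libraries, so pools outside a step also enter its test. Of the 2814 genes higher without ERRγ 976 had a difference called higher, and of the 2956 lower genes 1550 had a difference called lower. All 37 Complex I subunits had a difference called lower, and their median step with ERRγ present was -0.10. The counts with ERRγ present depended on single libraries, and leaving out any 1 of the 8 moved them by over 1.5 times. They ranged from 11 higher and 3 lower without αHetγWT replicate 1 to 370 higher without αKOγKO replicate 1 and 322 lower without αKOγKO replicate 2. For the difference the counts were 336 higher and 927 lower without αHetγKO replicate 1, 414 and 1030 without αHetγKO replicate 2, and 430 and 1017 or 415 and 992 without αHetγWT replicate 1 or 2. The higher count was 513 and 679 without αKOγWT replicates 1 and 2 and 1653 without αKOγKO replicate 2.

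Some genes moved with both steps in the same direction. Of the 74 genes lower with ERRγ present 63 were also lower without it, 4 were higher and 7 were not called. Lrtm1 was 27.5 and 23.1 in αHetγWT and 6.48 and 5.35 in αKOγWT, already low in αKOγWT (-2.10 ± 0.22, adjusted p = 0.00415). Mfn1 with ERRγ present was 87.5 and 82.4 in αHetγWT and 57.2 and 53.3 in αKOγWT (-0.62 ± 0.07, adjusted p = 0.00584). Of the 112 genes higher with ERRγ present 45 were also higher without it, 39 were lower and 28 were not called. Kcne1 was 18.4 and 24.0 in αHetγWT and 65.4 and 76.3 in αKOγWT (1.74 ± 0.14), and its 2 steps differed by -0.25 ± 0.19 (adjusted p = 0.409).

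**Figure D4:**
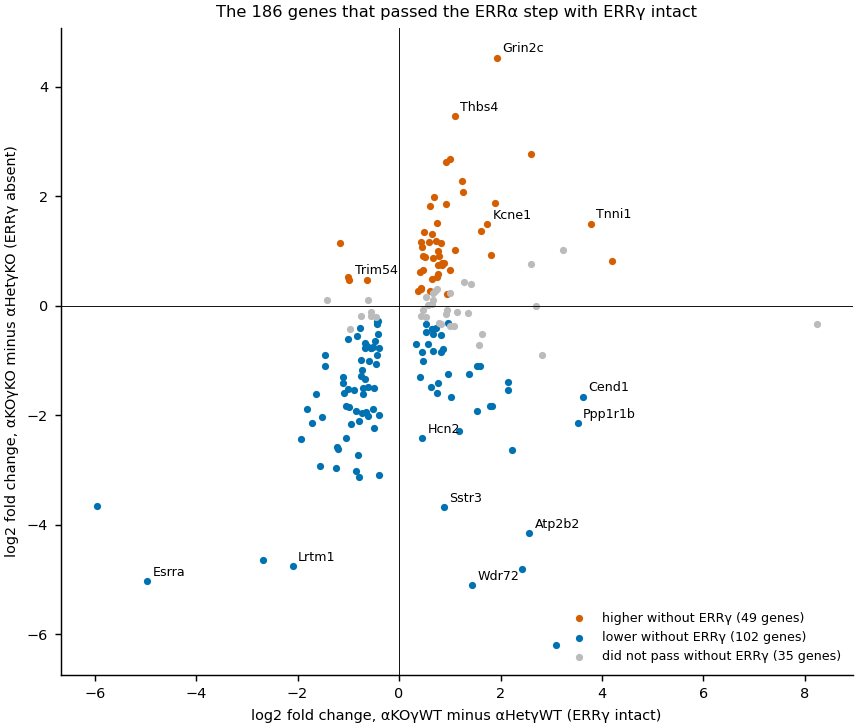
Log2 fold change of the ERRα step without ERRγ (αKOγKO against αHetγKO) against that with ERRγ (αKOγWT against αHetγWT) for the 186 genes called with ERRγ present; each point is 1 gene. By the test without ERRγ 49 were higher, 102 lower and 35 not called.

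A group of 43 genes was called one way with ERRγ present and the other way without it, and it was singled out after its values were seen. Of these, 39 were higher with ERRγ and lower without, and 4 were the reverse. The difference between the steps passed for all 43, the largest adjusted p being 0.00336, and kept its direction with each library left out in turn. A choice by opposite calls in these same libraries makes both likely, so neither is independent support. The number of genes so chosen depended on single libraries, being 6 and 1 without either αHetγWT pool, 11 to 15 and 2 to 3 without any 1 of the αHetγKO or αKOγWT pools, and 90 and 20 or 96 and 23 without αKOγKO replicate 1 or 2. Cend1 (chr7:141426446-141429562), known from neurons for cell cycle exit, was 2.09 and 2.77 in αHetγWT and 28.6 and 31.4 in αKOγWT (3.63 ± 0.17, adjusted p = 7.37e-05). Without ERRγ it was 3.69 and 4.32 in αHetγKO and 1.40 and 1.13 in αKOγKO (-1.66 ± 0.18, adjusted p = 0.000163). The highest pools were thus αKOγWT and the lowest αKOγKO, and the steps differed by -5.29 ± 0.24 (adjusted p = 2.19e-05). On the log2(RPKM + 1) scale its step without ERRγ was -1.08.

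Ppp1r1b (chr11:98348406-98357796), the protein phosphatase 1 inhibitor DARPP-32, followed the same order. It was 8.32 and 8.97 in αHetγWT and 90.6 and 108 in αKOγWT, and 11.0 and 8.93 in αHetγKO and 1.67 and 2.83 in αKOγKO, a difference between the steps of -5.67 ± 0.30 (adjusted p = 2.80e-05). Atp2b2, a plasma membrane calcium pump, was 0.800 and 1.06 in αHetγWT and 5.93 and 5.14 in αKOγWT and 1.12 and 1.00 in αHetγKO and 0.0218 and 0.0961 in αKOγKO, the steps differing by -6.72 ± 0.48, and its step without ERRγ was -0.95 on the log2(RPKM + 1) scale. Wdr72 was 1.61 and 1.48 in αHetγWT and 4.39 and 3.97 in αKOγWT, so that its fall without ERRγ stood against a rise of 1.44 ± 0.15 with it. Aldh1b1, a mitochondrial aldehyde dehydrogenase, was 37.8 and 36.6 in αHetγWT and 79.7 and 88.7 in αKOγWT and 44.7 and 47.8 in αHetγKO and 10.6 and 8.43 in αKOγKO (difference -3.46 ± 0.16, adjusted p = 2.16e-05). Gpi1, glucose-6-phosphate isomerase, was 318 and 334 in αHetγWT and 506 and 538 in αKOγWT and 364 and 356 in αHetγKO and 269.8 and 233 in αKOγKO (difference -1.19 ± 0.12). Hk1, hexokinase 1, changed by 0.96 ± 0.07 with ERRγ and by -0.32 ± 0.07 without, and the second call was lost without αHetγKO replicate 2 (adjusted p = 0.0636). Hcn2 (chr10:79716634-79736108) was 24.0 and 23.7 in αHetγWT and 34.1 and 31.2 in αKOγWT, a rise of 0.45 ± 0.08 (adjusted p = 0.0458) against its fall without ERRγ. Trim54, a muscle ubiquitin ligase, was one of the 4 in the other direction, at 41.8 and 45.0 in αHetγWT and 22.0 and 22.0 in αKOγWT and 43.7 and 42.4 in αHetγKO and 64.0 and 55.6 in αKOγKO (difference 1.46 ± 0.12, adjusted p = 0.000113).

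**Figure D5:**
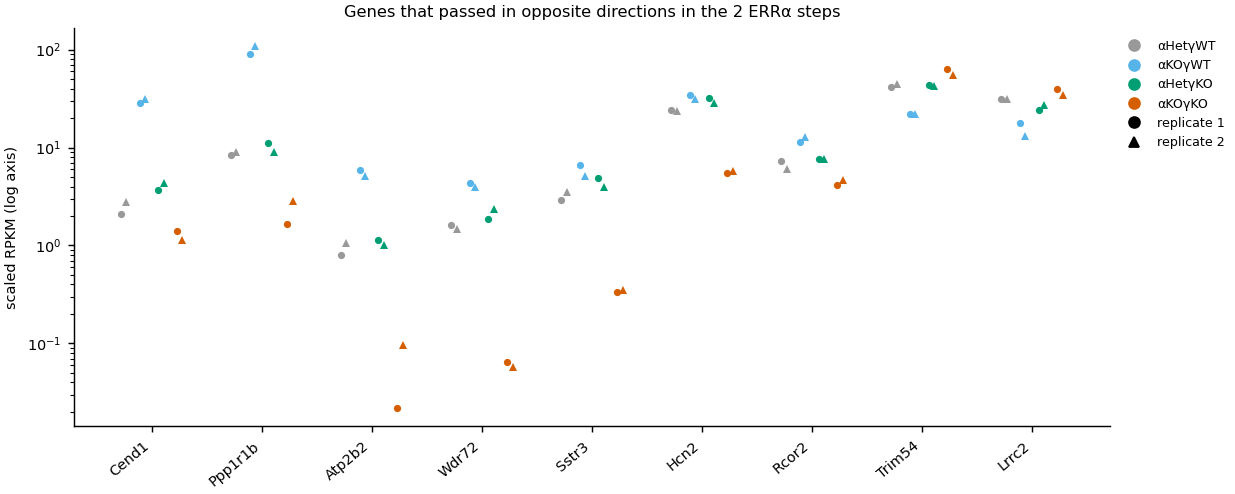
Scaled RPKM on a log axis in each of the 8 libraries for genes called in opposite directions by the 2 ERRα steps; each point is 1 library, grouped by genotype. Cend1 is highest in αKOγWT (28.6 and 31.4) and lowest in αKOγKO (1.40 and 1.13).

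TCAAGGTCA, an element to which ERRs are known to bind, was looked for on both strands of RefSeq promoters (GRCm38.p6, the assembly of mm10, 250 bases before to 50 after each start). Of the tested genes 11870 had a promoter in the table, and 39 of these (0.329%) held the element. It was present in 9 of 2362 promoters of genes called lower (0.381%), 5 of 2216 called higher (0.226%) and 25 of 7292 not called (0.343%). The looser form TNAAGGTCA, which contains the first, was in 111 (0.935%), with 17 among lower genes (0.72%) and 25 among higher genes (1.13%). None of 33 Complex I promoters held TCAAGGTCA, and of 33 in Complexes II to V those of Sdhd and Atp5g3 did. Among the 39 genes higher with ERRγ and lower without, 32 had a promoter and 2 of these, Hcn2 and Acsl6, held the element. Acsl6, a long-chain acyl-CoA synthetase, was 2.12 and 1.89 in αHetγWT and 4.24 and 3.96 in αKOγWT and 3.89 and 3.09 in αHetγKO and 1.24 and 0.951 in αKOγKO (difference -2.70 ± 0.26, adjusted p = 0.000245), with -1.03 for the step without ERRγ on the log2(RPKM + 1) scale. The stretches around these matches are shown for genes described above, read 5′ to 3′ on the strand of the gene. Capitals mark TGACCTTGA, the element as read from the opposite strand. They lie at chr10:79716426-79716514 (+) for Hcn2, chr11:54303617-54303705 (+) for Acsl6 and chr2:73911330-73911418 (-) for Atp5g3, and the first base of the element is at -168, -167 and -52 from the annotated start.
Hcn2: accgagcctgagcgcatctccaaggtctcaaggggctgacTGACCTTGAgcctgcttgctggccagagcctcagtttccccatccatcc
Acsl6: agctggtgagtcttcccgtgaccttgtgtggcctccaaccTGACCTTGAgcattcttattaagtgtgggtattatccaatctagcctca
Atp5g3: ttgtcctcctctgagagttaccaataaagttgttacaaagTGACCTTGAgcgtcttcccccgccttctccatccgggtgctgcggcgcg
A match is a description of these letters in this window and no measure of binding.

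Rcor2, a corepressor gene within 2 Mb of Esrra on chromosome 19, was among the 43 as well, at 7.24 and 6.09 in αHetγWT and 11.4 and 12.8 in αKOγWT and 7.56 and 7.67 in αHetγKO and 4.13 and 4.63 in αKOγKO (difference -1.66 ± 0.18, adjusted p = 0.000394). Within 2 Mb of Esrra 128 genes were tested, of which 46 were called without ERRγ and 1 with ERRγ present, shares no higher than the 38.3% and 1.23% of all tested genes.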

How the data were processed

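RNA of pooled postnatal day 16 hearts was sequenced by the authors, who deposited for each library a table of uniquely assigned read counts per gene, RPKM and a coverage score, on mm10. The aligner and counter are not given in the sources used here. The deposited RPKM served the limma alternative and the 5 RPKM filter, and the coverage score was not used in any test. Scaled RPKM was computed from the counts with TMM-scaled library sizes and the longest gene length listed. Symbols and gene positions were matched by gene ID to RefSeq on GRCm38.p6. Absent genes were set to 0, and 44 genes carry no symbol. Whether reads were counted by strand is not given, so overlapping genes cannot be told apart.

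Counts of all 8 libraries were fitted in edgeR 4.0.16 (R 4.3.3) with TMM factors, filterByExpr (minimum count 10, minimum total 15) and 1 coefficient per genotype, leaving 4 residual degrees of freedom, and tested by the quasi-likelihood F test with Benjamini-Hochberg adjustment over 15076 genes at 0.05. As SE, the absolute log2 fold change over the root of its F value is given. The biological coefficient of variation was 0.121. In simulated counts for the contrast of αKOγKO with αHetγKO, 15076 genes with 200 changed, 49.3% of 1.5-fold, 95.5% of 2-fold and 100% of 4-fold changes were called, and 0.0403% of unchanged genes. The simulation gave all genes and genotypes 1 dispersion, the median of the fitted values, and changed only genes above a minimum mean count. It left out the wider spread between the αKOγKO pools and the genes of high spread, so these rates cannot be carried over to the measured contrast.

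Alternatives were DESeq2 1.42.0 size factors and its Wald test, upper-quartile factors, limma 3.58.1 on log2 of RPKM with a pseudocount of 1, every gene kept without filtering, only genes averaging 5 RPKM or more, a test against a 2-fold change, a replicate block, the 4 compared libraries alone and each library left out. Both the fit without X and Y chromosome genes and the fit on reads thinned to equal depth were chosen after seeing the data. Replicate numbers did not pair the pools. The correlation of deviations was -0.077 between αHetγKO and αKOγKO. The comparison, the gene lists and the genes named were chosen with earlier results of these data known. The naming rule covered the ERR genes, the 15 largest rises and falls with a mean of at least 1 RPKM, in each list the 4 members of smallest adjusted p and any member called against its list's median, the study's secreted factors, the 8 largest differences between the steps each way, neighbours of Esrra called in both steps, and the 5 genes most different between the αKOγKO pools each way. It gave 248 genes, of which the text gives part. Other genes named as examples of a list or of an opposite change were chosen after their values were seen.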

Additional observations from a re-analysis of the deposited data

Results flagged for a closer look

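The ERRα step was measured with and without ERRγ, and the test of the difference between the 2 steps set apart the results given here. For 1020 genes the step without ERRγ was higher than the step with ERRγ, and for 1620 it was lower. A total of 43 genes were called one way with ERRγ present and the other way without it. On the log2 scale the steps differed by -5.29 for Cend1, -5.67 for Ppp1r1b, -6.72 for Atp2b2, -6.54 for Wdr72 and -2.87 for Hcn2, genes that rose with ERRγ present and fell without it. They differed by 4.02 for Nmrk2, 4.32 for Slc16a3 and 4.01 for Gdf15, whose change with ERRγ present did not pass the test. The coactivator gene Ppargc1a differed by 1.03, Esrrg by 0.70 and Ldhb by -1.87. Groups of 2 pools are too small for a test of single outlying pools, and causes were not tested.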

How the results depend on the processing

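Counts of genes higher and lower in αKOγKO against αHetγKO were 2814 and 2956. They stayed within 1.5 times under the other scalings, DESeq2, limma, both filters, the 4 compared libraries alone, and the replicate block (2738 and 2938). The test against a 2-fold change gave 191 and 404. Leaving out each library gave 1460 to 2913 higher and 1901 to 3265 lower. With ERRγ present (112 and 74) the counts were 244 and 181 by DESeq2, 221 and 181 in those 4 libraries alone, 3 and 1 against a 2-fold change, and 11 to 370 and 3 to 322 with libraries left out. For the difference between the steps (1020 and 1620) limma gave 1644 higher, the 2-fold test 35 and 230, and the left-out libraries 336 to 1653 and 927 to 2216. The replicate block gave 124 and 81 with ERRγ present and 966 and 1606 for the difference. The pools were not paired, and same-numbered pools deviated with a correlation of -0.077. Without the X and Y chromosomes or with thinned reads no count moved by over 1.5 times. The causes of these shifts were not tested.

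Of 118 genes in the text 115 passed, and 104 did so with each library left out in turn. With libraries left out, Xist ranged from -0.757 to 9.42 (lowest without αKOγKO replicate 1), Esrrb from -0.686 to 0.0559 (highest without αKOγKO replicate 2) and Gpc3 from -0.0647 to 0.325 (lowest without αHetγKO replicate 1, and also below 0 without αKOγKO replicate 1). Among genes averaging 5 RPKM or more, medians turned for p53 targets (-0.094) and ventricular (0.024) and skeletal muscle markers (-0.472). The skeletal median ranged from -0.184 (without αHetγKO replicate 2) to 0.199 with libraries left out. Fewer list members were called by limma (immediate-early 9, sarcomere 6 lower, calcium 7 lower), in the 4 libraries alone (immediate-early 8, replication 18, calcium 7 lower) and at 5 RPKM (replication 6, with fewer genes tested). Low genes are limited by depth and by the pseudocount.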
